A study of Mus musculus with 4 samples.

Results

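The AP-1 family in splenic regulatory T (Treg) cells was examined through 10 genes of the FOS, JUN and ATF groups, which were chosen by name: Fos, Fosb, Fosl2, Jun, Junb, Jund, Atf3, Batf3, Atf4 and Jdp2. Each had 1 row among the 24087 rows of the deposited expression table. CD3+CD4+YFP+ Treg cells were sorted from spleens of C57BL/6 mice at steady state. KO mice were Foxp3Cre-YFPSetd2f/f, and their CTRL littermates were Foxp3Cre-YFPSetd2f/+. Both genotypes carried the Foxp3Cre-YFP allele, which drives Cre and the YFP used for the sort from the Foxp3 gene, and at least 1 floxed allele of Setd2, the gene of the enzyme that adds H3K36me3. CTRL 1 and CTRL 2 were the libraries of 1 genotype and KO 1 and KO 2 those of the other, with about 1000000 cells from 2 pooled mice in each. The labels gave no age or sex for the pooled mice.

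AP-1 is a dimer of basic leucine zipper proteins. FOS proteins pair with JUN proteins, whereas JUN proteins can also pair with one another and with ATF or BATF proteins, and the pair decides which DNA element is bound. Several of these genes are immediate early genes, which are transcribed within minutes of T cell receptor, cytokine or stress signals, and in T cells AP-1 binds DNA together with NFAT and IRF4.

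Total reads recovered from the expression values ran from at least 29988267 in CTRL 1 to at least 32686764 in KO 2. CTRL 1 stood apart in the number of genes above 0, with 19100 against 15913 to 16410 in the other libraries, although it had the fewest reads. The sorted population carried Treg and T cell transcripts, with Foxp3 between 112 and 140 FPKM (fragment counts divided by the length of the gene and the size of the library) and T cell markers summing to between 1717 and 1844 FPKM. CD8 T cell markers summed to at most 11.4 FPKM. Setd2 itself was at 23.4 FPKM in CTRL 1 and 25.3 in CTRL 2, against 21.3 in KO 1 and 19.5 in KO 2, and the difference did not pass the threshold (log2 fold change -0.24, SE 0.076, limma, Benjamini-Hochberg adjusted p = 0.0970). Reads over single exons were not analysed here, so these values do not measure the deletion of the floxed part. Transcripts of other blood cells were uneven between libraries of 1 genotype. The 8 monocyte and macrophage markers summed to 214.8 FPKM in CTRL 1 and 135.6 in CTRL 2, against 253.4 in KO 1 and 107.9 in KO 2, and no marker of that list was at 0 in any library.

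Before the values, short stretches of promoter sequence are shown for the genes on which the results turn, because several of these promoters hold the core of the element that ATF, CREB and JUN-ATF dimers bind. Sequences are those of RefSeq on GRCm38.p6, read 5′ to 3′ on the strand of the gene, and capitals mark the match. Windows from 250 bases before to 50 bases after the annotated start were searched on both strands for TGACG, the cyclic AMP response half-site, for TGACNTCA, the longer element of the same factors, which overlaps TGACG where N is G, and for TGANTCA, the classical AP-1 element. The match shown lay 66 bases before the start in Fos, 60 in Fosb, 45 in Jun, 106 in Junb, 114 in Jdp2 and 98 in Batf. For Jdp2 the distance is counted from an annotated start that lies inside the span of the gene given below. Fos held a further TGACG, 129 bases before its start, which is not shown.
Fos, chr12:85473812-85473841, plus strand: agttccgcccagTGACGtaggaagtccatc
Fosb, chr7:19310088-19310117, minus strand: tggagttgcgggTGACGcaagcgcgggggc
Jun, chr4:95052249-95052278, minus strand: aagcctcggggTGACATCAtgggctatttt
Junb, chr8:84978837-84978866, minus strand: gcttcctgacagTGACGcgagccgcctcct
Jdp2, chr12:85599290-85599319, plus strand: tccgtccccctcTGACGtgtggagctggca
Batf, chr12:85686610-85686639, plus strand: tttctaacttgtTGACGtttccgcccatgt

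TGACG was found in windows of 6 of the 10 genes, namely Fos, Fosb, Junb, Atf3, Atf4 and Jdp2, against 20.8% of all 32851 promoter windows. TGACNTCA was found in that of Jun alone (8.83% of all windows). TGANTCA was found in none of the 10 genes (7.81% of all windows), and neither was the CArG box that serum response factor binds (1.63% of all windows). The 10 genes had 12 windows, since Jdp2 has more than 1 annotated start. A match describes the letters of these windows and not binding, and nothing follows from a missing match.

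The members differed widely in level (the plot of levels by gene). Junb, which encodes the JUN protein most abundant as mRNA here, stood at 1526 FPKM in CTRL 1 and 1985 in CTRL 2, against 2178 in KO 1 and 1628 in KO 2. It ranked above 99.7% of the genes tested in each library and was 5.76 times the next member in CTRL. Its KO and CTRL ranges overlapped. In CTRL, Junb was followed by Jund, Fos, Jun, Atf4, Fosb, Atf3, Fosl2, Jdp2 and Batf3. The ranges of Jund and Fos overlapped in CTRL, as did those of Atf4 and Fosb. Those of Fos and Jun did not overlap in CTRL but did over all 4 libraries. All other neighbours in this order were separate over the 4 libraries, with Fosb 10.4 times Atf3. FPKM is scaled by gene length, so these comparisons are between levels per length.

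**Figure D1:**
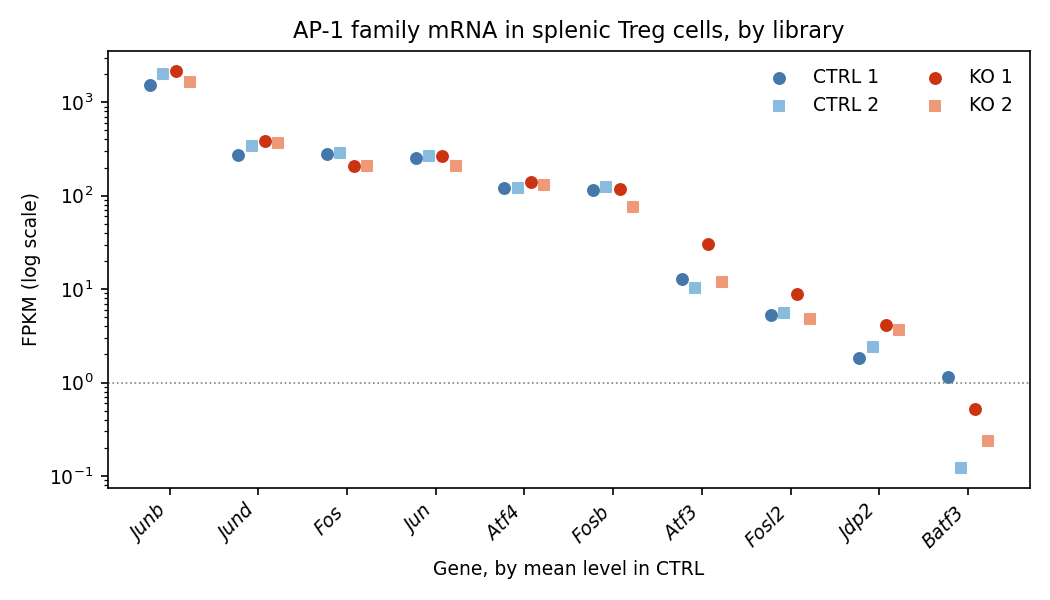
FPKM of the 10 AP-1 family genes in CTRL 1, CTRL 2, KO 1 and KO 2, on a log scale, with genes in the order of their mean in CTRL and 1 point per library. The dotted line is the FPKM of 1 that at least 2 libraries had to reach for a gene to be tested. Junb lies above every other member, and Batf3 reaches the line in CTRL 1 only.

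KO was compared with CTRL to ask how the mRNA of these factors differed between Treg cells with 2 floxed Setd2 alleles and with 1. CTRL Treg cells carried Cre as well, and the paper refers to 1 deficient Setd2 allele in them, so CTRL was not wild type. Fos fell in KO, and it was the only member past the threshold (limma on log2(FPKM + 1), Benjamini-Hochberg adjusted p under 0.05). No member rose past it. Of the 10 members, 9 passed the filter and were tested, and 1 of the 9 was called lower against 4.65% of the 11399 genes tested. None was called higher, against 5.10% of all genes. At an unadjusted p under 0.05, 3 members were higher (Jund, Atf4 and Jdp2) and 1 was lower (Fos), where 16.3% of all genes were higher and 18.4% lower. Both KO libraries lay above both CTRL libraries in the same 3 members, against 29.0% of all genes, and below them in Fos alone, against 35.5%. The median log2 fold change over the 9 members was 0.16, and over all genes tested it was -0.022. With 9 genes tested these counts are a description, and nothing particular to the members is read from them. A p-value here sets the difference against the spread between pools of 2 mice, which limma estimates in part from other genes of similar level. In bulk RNA, fewer cells that carry a transcript and less of it per cell cannot be told apart.

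**Figure D2:**
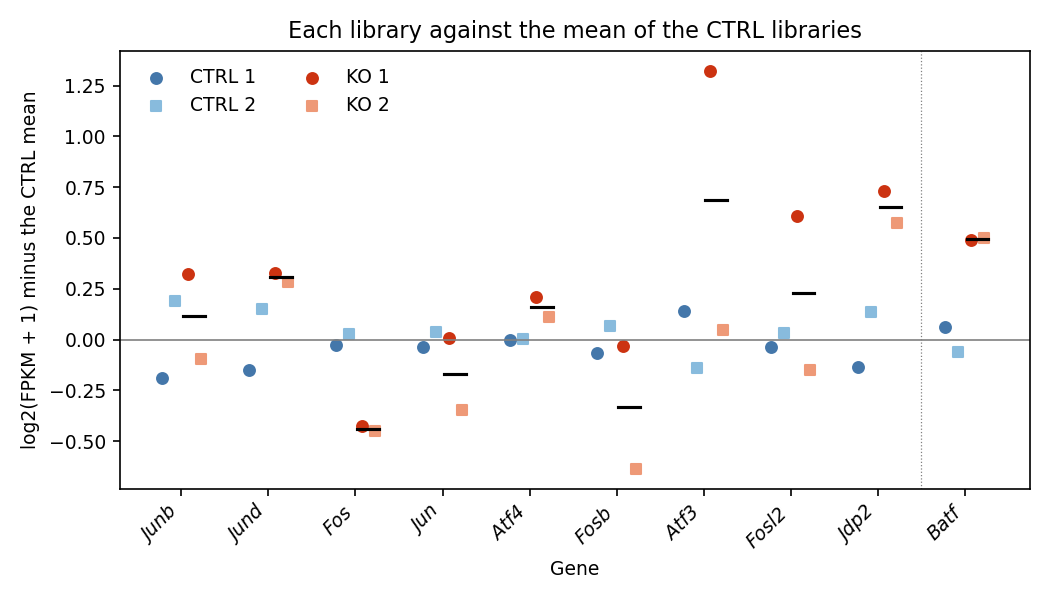
Difference of log2(FPKM + 1) from the mean of both CTRL libraries for the 9 tested members and, right of the dotted line, Batf, with 1 point per library and a black bar at the mean of the KO libraries. Both KO libraries lie together below CTRL for Fos and together above it for Jdp2 and Batf, whereas KO 1 and KO 2 lie far apart for Atf3, Fosl2 and Fosb.

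Fos encodes the founding FOS protein, an immediate early partner of the JUN proteins. Its mRNA was at 276.8 FPKM in CTRL 1 and 286.6 in CTRL 2, against 209.2 in KO 1 and 206.0 in KO 2. Both KO libraries were below both CTRL libraries, and libraries of 1 genotype differed little. The mean went from 281.7 ± 6.95 FPKM in CTRL to 207.6 ± 2.29 in KO (SD, n = 2 each), a decrease of 26.3% in mean FPKM. The log2 fold change was -0.44 (SE 0.053, 95% interval -0.57 to -0.30, limma adjusted p = 0.0346). At least 15287 reads stood behind each of these values. Leaving out any 1 library kept the log2 fold change between -0.46 and -0.41, but the adjusted p then lay between 0.104 and 0.140 in limma, and across all genes at most 1 gene in either direction remained called. Fos passed the threshold under 9 of the other 10 settings, the exception being the test of every gene above 0 (limma adjusted p = 0.0860).

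Fosb encodes a FOS protein that is also an immediate early product. It was at 114.1 FPKM in CTRL 1 and 125.1 in CTRL 2, against 116.9 in KO 1 and 76.5 in KO 2, so that KO 1 lay between the CTRL libraries and KO 2 was the lowest of the 4. The log2 fold change was -0.33 (SE 0.20, 95% interval -0.85 to 0.18, limma adjusted p = 0.296), and it was -0.031 without KO 2. Fosl2, which encodes the FOS-related protein FRA-2, was far less abundant, at 5.27 FPKM in CTRL 1 and 5.58 in CTRL 2, against 8.78 in KO 1 and 4.78 in KO 2. KO 1 was the highest and KO 2 the lowest library, and the log2 fold change was 0.23 (SE 0.25, limma adjusted p = 0.566). It turned to -0.15 without KO 1.

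Jun encodes c-JUN, the founding partner of FOS. It was at 254.8 FPKM in CTRL 1 and 268.5 in CTRL 2, against 262.8 in KO 1 and 205.5 in KO 2. Only KO 2 lay outside the CTRL range. The log2 fold change was -0.17 (SE 0.12, 95% interval -0.49 to 0.15, limma adjusted p = 0.382), and it was 0.0068 without KO 2 and -0.30 under quantile normalization (limma adjusted p = 0.174). For Junb the log2 fold change was 0.11 (SE 0.19, 95% interval -0.37 to 0.60, limma adjusted p = 0.707). It was 0.20 under quantile normalization, and turned to -0.097 without KO 1 and to -0.076 without CTRL 1. These intervals include differences in either direction.

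Jund encodes the JUN protein that is the least dependent on stimulation. It was at 273.0 FPKM in CTRL 1 and 336.8 in CTRL 2, against 380.5 in KO 1 and 369.6 in KO 2. Both KO libraries were above both CTRL libraries, but the CTRL libraries also differed from each other by 0.30 on the log2 scale. The mean was 304.9 ± 45.1 FPKM in CTRL and 375.1 ± 7.71 in KO (SD, n = 2 each). The log2 fold change of 0.31 (SE 0.11, 95% interval 0.028 to 0.58) did not pass the threshold (limma adjusted p = 0.121).

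As a result of these values the balance of FOS-type and JUN-type transcripts was lower in both KO libraries (the stacked plot of shares). Fos, Fosb and Fosl2 together held 16.2% of the summed FPKM of the 6 FOS and JUN genes in CTRL 1 and 13.9% in CTRL 2, against 10.6% in KO 1 and 11.5% in KO 2. The level of Fos divided by that of Jund was 1.01 in CTRL 1 and 0.851 in CTRL 2, against 0.550 in KO 1 and 0.557 in KO 2. The ratio of Fos to Jun showed a smaller gap, 1.09 and 1.07 in CTRL against 0.796 and 1.00 in KO, and that of Fos to Junb was 0.181 and 0.144 against 0.0960 and 0.127. Groups did not overlap in any of these 4 measures. Such separation was common, since both KO libraries lay above both CTRL libraries in 29.0% of all genes tested and below them in 35.5%. All 4 measures contain Fos, so they are not independent of its fall. With 2 libraries against 2, an exact two-sided permutation test cannot go below p = 0.333, and none was run.

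**Figure D3:**
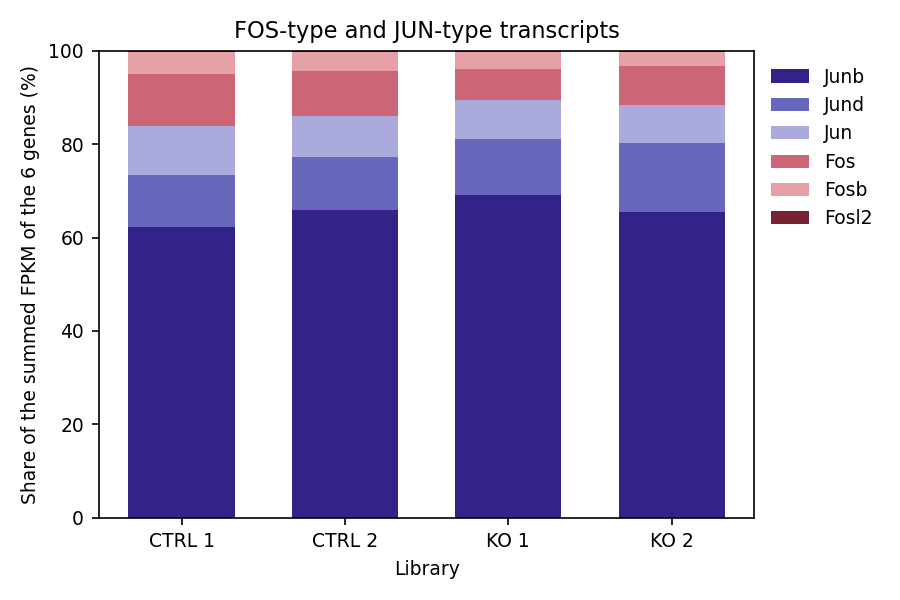
Share of each of the 6 FOS and JUN genes in their summed FPKM, in percent, for each library. Junb holds 62.3% to 69.0%, and the FOS-type share (upper 3 segments) falls from 16.2% and 13.9% in CTRL to 10.6% and 11.5% in KO, with Fosl2 too small to be seen.

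Among the ATF-type members, Jdp2 encodes a repressor that pairs with JUN proteins. Its mRNA was at 1.83 FPKM in CTRL 1 and 2.43 in CTRL 2, against 4.17 in KO 1 and 3.63 in KO 2, with at least 113 reads behind each value. Both KO libraries were above both CTRL libraries, and mean FPKM was 1.83 times as high in KO. The log2 fold change of log2(FPKM + 1) was 0.65 (SE 0.14, 95% interval 0.30 to 1.00) and stood just outside the threshold (limma adjusted p = 0.0509). It passed under 4 of 9 other settings, with limma adjusted p between 0.0327 and 0.125 over the 9, and the log2 fold change lay between 0.51 and 0.79 when each library was left out in turn.

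Atf4 encodes the effector of the integrated stress response, whose protein is set mainly through translation. It was at 120.2 FPKM in CTRL 1 and 120.9 in CTRL 2, against 139.7 in KO 1 and 130.2 in KO 2. Both KO libraries were higher, by a log2 fold change of 0.16 (SE 0.059, 95% interval 0.011 to 0.31, limma adjusted p = 0.126), which did not pass the threshold and was 0.053 under quantile normalization (limma adjusted p = 0.585). Atf3, a stress-induced factor and itself a target of ATF4, was at 12.7 FPKM in CTRL 1 and 10.3 in CTRL 2, against 30.1 in KO 1 and 11.9 in KO 2. A single library, KO 1, was high. The log2 fold change of 0.69 (SE 0.42, 95% interval -0.38 to 1.75, limma adjusted p = 0.298) was 0.049 without KO 1.

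Batf3, which pairs with JUN proteins and is required for conventional type 1 dendritic cells, was close to the limit of detection. It was at 1.16 FPKM in CTRL 1 and 0.122 in CTRL 2, against 0.517 in KO 1 and 0.238 in KO 2, which rest on at least 27, 3, 13 and 6 reads. It was below the filter and was not tested. Dendritic cell markers summed to 8.38, 5.85, 7.45 and 4.67 FPKM in the same order of libraries and none of the list was at 0 in all of them. Their part in the Batf3 values was not tested.

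Fos, Jdp2 and Batf are neighbours on chromosome 12 (RefSeq, GRCm38.p6). Fos lies at chr12:85473890-85477274, Jdp2 at chr12:85598656-85639878 and Batf at chr12:85686720-85709087, all on the plus strand. In GENCODE, on the same build, 121753 bases separate Fos from Jdp2 and 46790 bases separate Jdp2 from Batf. Batf, whose protein pairs with JUN and binds with IRF4, was at 79.7 FPKM in CTRL 1 and 72.9 in CTRL 2, against 107.6 in KO 1 and 108.2 in KO 2. It rose in KO (log2 fold change 0.50, SE 0.063, limma adjusted p = 0.0346), whereas Fos at the other end of the cluster fell, and the call of Batf, like that of Fos, was lost without any 1 library. Atf3 and Batf3 form a second pair, on chromosome 1, with 61350 bases between them. Whether position bore on any of these values was not tested.

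Libraries of the same genotype differed in a direction that most members shared (the plot of differences within a genotype). All 9 tested members were higher in KO 1 than in KO 2, with a median difference of 0.35 in log2(FPKM + 1). Over all genes tested, 5291 of 11399 were higher in KO 1 and the median difference was -0.011. The difference was 1.28 for Atf3, 0.76 for Fosl2, 0.60 for Fosb, 0.42 for Junb and 0.35 for Jun. It was 0.042 for Jund and 0.022 for Fos, both under the median absolute difference of 0.091 over all genes tested. Other immediate early genes shared the pattern, with 36 of 38 higher in KO 1 at a median of 0.29. Between the CTRL libraries the order was the opposite, with 1 of 9 members and 11 of 38 other immediate early genes higher in CTRL 1. Over all genes tested, 6092 of 11399 were higher in CTRL 1. The CTRL differences of the members had a median of -0.075. Their median absolute difference was 0.13, where that over all genes tested was 0.095.

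Markers of other cells were also higher in KO 1 than in KO 2, in 8 of 8 tested monocyte and macrophage markers (median 0.99), 3 of 3 neutrophil markers and 3 of 3 erythroid markers. Neutrophil markers summed to 12.3 FPKM in CTRL 1 and 0.710 in CTRL 2, against 41.5 in KO 1 and 2.23 in KO 2. The same lists were also higher in CTRL 1 than in CTRL 2 (8 of 8 monocyte and macrophage markers, median 0.60), where 8 of the 9 members were lower. B cell markers summed to 23.3, 19.4, 34.9 and 19.5 FPKM, erythroid markers to 22.7, 4.16, 38.5 and 11.4 FPKM, and NK cell markers to between 4.26 and 5.33 FPKM. No marker of these lists was at 0 in all libraries. The part of these cells in the levels of the members was not tested.

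**Figure D4:**
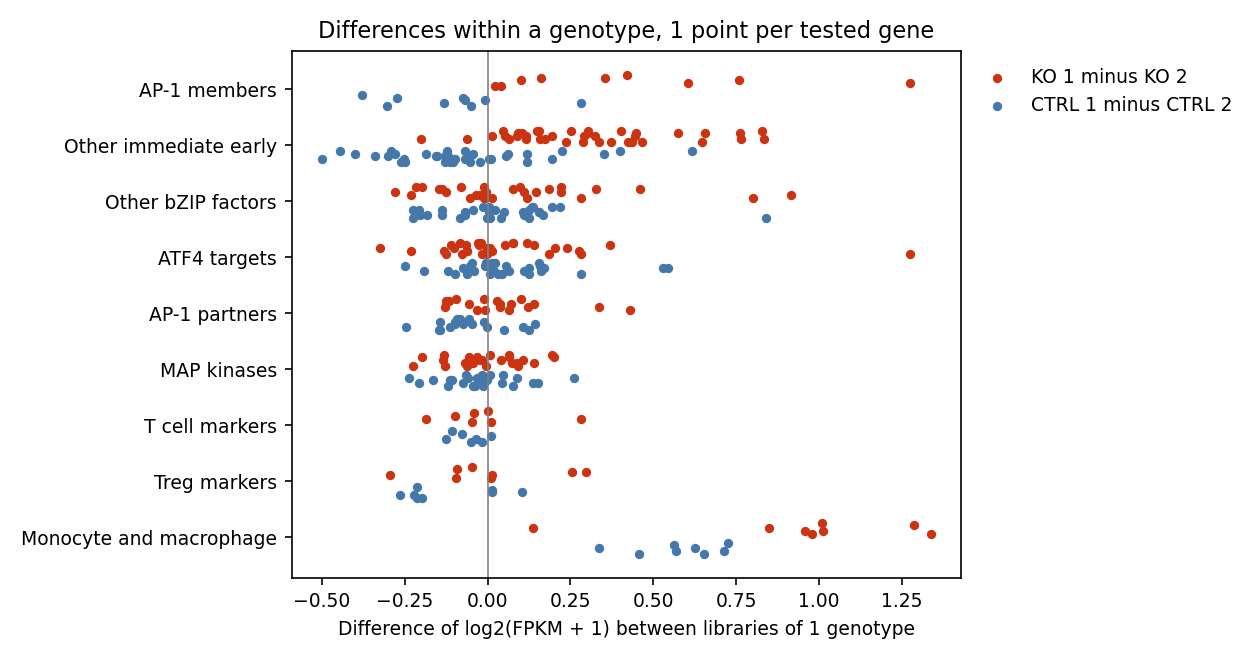
Difference of log2(FPKM + 1) between the libraries of 1 genotype, KO 1 minus KO 2 in red and CTRL 1 minus CTRL 2 in blue, with 1 point per tested gene of each list. All 9 AP-1 members and 36 of 38 other immediate early genes lie right of 0 for KO, most of them left of 0 for CTRL, and all 8 monocyte and macrophage markers lie right of 0 for both.

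The genes whose values over the 4 libraries were most like the mean profile of Fos, Fosb, Jun and Junb were Ptpn5, Rcor3, Dnajb4, Lrig1 and Socs6. Likeness was the Euclidean distance between centred log2(FPKM + 1) profiles over 4 libraries, among tested genes with a mean FPKM above 5, and ran from 0.036 for Ptpn5 to 0.050 for Socs6. That mean profile was 0.024 in CTRL 1 and 0.18 in CTRL 2, against 0.072 in KO 1 and -0.28 in KO 2. Ptpn5, which encodes a tyrosine phosphatase, was at 6.12, 6.89, 6.15 and 4.62 FPKM in the same order of libraries. Lrig1, which encodes a membrane protein that restrains growth factor receptors, was the most abundant of the 5 at 44.5, 50.0, 44.2 and 35.1 FPKM. In all 5 genes KO 2 was the lowest library, which follows from choosing them by a mean profile that is lowest in KO 2. None passed the threshold (limma adjusted p 0.220 to 0.445), and nothing is read from this either. Over 4 libraries such likeness describes the values only.

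Among the remaining basic leucine zipper factors, 35 genes were listed and 31 were tested. Of these, 4 rose and 1 fell, against 5.10% and 4.65% of all genes, with a median log2 fold change of -0.018 over the list. Besides Batf, these were Nfil3, Cebpa and Cebpb, which rose, and Crebl2, which fell. Nfil3, a repressor induced by cytokines, went from 28.9 and 34.0 FPKM in CTRL to 73.2 and 52.9 in KO (log2 fold change 0.97, SE 0.17, limma adjusted p = 0.0405). Cebpb rose by 0.67 (SE 0.10) and Cebpa by 0.66 (SE 0.10), and both encode C/EBP factors that are abundant in myeloid cells. The summed monocyte and macrophage markers were lowest in KO 2 (107.9 FPKM). In that library Cebpa (17.01 FPKM) and Cebpb (48.94 FPKM) were above both CTRL libraries. In KO 1 that sum, Cebpa and Cebpb were each at their highest. The part of myeloid cells in the rise of Cebpa and Cebpb was not tested. Crebl2 fell by 0.43 (SE 0.074). Fosl1, the FOS-type gene outside the 10, was at 0.143, 0.0508, 0.332 and 0.281 FPKM on at least 8, 3, 20 and 17 reads and was not tested.

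Of 18 factors listed as DNA-binding partners of AP-1 in T cells, all tested, 6 rose and 1 fell, against 5.10% and 4.65% of all genes. The list was chosen with earlier results of these data known, so these counts are a description and nothing about partners is read from them. The median log2 fold change of the list was 0.20. Batf belonged to this list as well. Irf4, the partner of BATF and JUN at composite elements, went from 18.0 and 16.7 FPKM in CTRL to 35.7 and 28.0 in KO (log2 fold change 0.83, SE 0.12, limma adjusted p = 0.0355). Ets2 rose by 0.79 (SE 0.15), Runx3 by 0.42 (SE 0.080), Smad3 by 0.31 (SE 0.061) and Nfatc1 by 0.28 (SE 0.051). Nfatc1 encodes an NFAT protein that binds with FOS and JUN, whereas Nfat5, which fell by 0.29 (SE 0.059), encodes the NFAT-related factor of the osmotic response. Ets2 and Irf4 were also higher in KO 1 than in KO 2, by 0.43 and 0.34. Under quantile normalization the list had 4 higher and 0 lower, since Nfatc1, Smad3 and Nfat5 were not called (limma adjusted p = 0.0669, 0.0520 and 0.0539), and without a variance trend it had 2 higher and 0 lower. Left out 1 at a time, each library ended every call in this list and in the list before it.

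Upstream of FOS and JUN, 24 genes of the MAP kinase cascades were tested, and 1 rose and 1 fell, against 5.10% and 4.65% of all genes. At an unadjusted p under 0.05, 6 of them were higher and 8 lower, where all genes gave 16.3% and 18.4%, and equal-sum scaling called 1 higher and 3 lower and limma-voom on recovered reads 1 higher and 4 lower. Map2k3, a kinase that activates p38, rose by 0.46 (SE 0.081, limma adjusted p = 0.0405) and Mapk12, which encodes p38 gamma, fell by 0.76 (SE 0.13, limma adjusted p = 0.0386). Mapk12 was at 4.39 and 3.50 FPKM in CTRL and 1.84 and 1.95 in KO. Of the 12 genes of serum response factor, its cofactors and the CREB coactivators, none passed in limma over the 11399 genes tested. At an unadjusted p under 0.05, 1 of these was higher and 2 were lower, and limma-voom called 0 higher and 1 lower. Elk4, an ETS cofactor of serum response factor, had the smallest p of this list (log2 fold change -0.27, SE 0.064, limma adjusted p = 0.0597), and passed among genes with a mean FPKM above 5 (limma adjusted p = 0.0473), with robust eBayes (0.0498) and in limma-voom (0.0359).

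Among 15 genes whose products limit JUN and FOS proteins, 2 fell and none rose in limma, against 4.65% and 5.10% of all genes. At an unadjusted p under 0.05, 2 were higher and 3 lower, where all genes gave 16.3% and 18.4%. In limma-voom, 0 were higher and 3 lower. Cul4a, a ubiquitin ligase scaffold, went from 14.5 and 15.0 FPKM in CTRL to 9.67 and 10.1 in KO (log2 fold change -0.54, SE 0.067, limma adjusted p = 0.0346). Ubr1, a ligase of the N-degron pathway, fell by 0.42 (SE 0.070). These values are of mRNA, and protein was not measured. The calls named for MAP kinases, Cul4a and Ubr1 were likewise lost when any 1 library was left out.

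Of 38 other immediate early genes, all tested, Socs3 and Dusp2 rose and Myc fell, against 5.10% and 4.65% of all genes. The median log2 fold change was 0.17. At an unadjusted p under 0.05, 9 were higher and 6 lower, where all genes gave 16.3% and 18.4%. The counts called in this list depended on the setting. They were 1 higher and 5 lower under quantile normalization, and 3 higher and 2 lower among genes with a mean FPKM above 5. In limma-voom, 3 were higher and 3 lower. Socs3, a feedback inhibitor of cytokine receptors, went from 57.9 and 55.7 FPKM in CTRL to 108.4 and 88.4 in KO (log2 fold change 0.78, SE 0.11, limma adjusted p = 0.0351). Dusp2, a phosphatase that acts on MAP kinases, rose by 0.29 (SE 0.059, limma adjusted p = 0.0476), but did not pass after equal-sum scaling (0.0519) or quantile normalization (log2 fold change 0.17, limma adjusted p = 0.124). Myc, a growth-promoting transcription factor, went from 65.4 and 64.9 FPKM in CTRL to 41.3 and 47.6 in KO (log2 fold change -0.54, SE 0.082, limma adjusted p = 0.0355). Without any 1 library, none of the 3 calls remained.

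Around Atf4, 1 of 15 genes of the eIF2alpha pathway that controls its translation rose and none fell, against 5.10% and 4.65% of all genes. Ppp1ca, a catalytic subunit of protein phosphatase 1, went from 262.4 and 258.1 FPKM in CTRL to 328.7 and 345.0 in KO (log2 fold change 0.37, SE 0.055, limma adjusted p = 0.0355). It was 0.23 and not called under quantile normalization (limma adjusted p = 0.0527), which left 0 of the 15 called. Of 40 listed ATF4 targets, which include Atf3, 32 were tested. In limma 3 rose and none fell, where all genes gave 5.10% and 4.65%. At an unadjusted p under 0.05, 6 were higher and 2 lower, where all genes gave 16.3% and 18.4%. In limma-voom, 3 were higher and 1 lower. The 3 that rose in limma were Phgdh, the first enzyme of serine synthesis (0.39, SE 0.064), the glycyl-tRNA synthetase gene Gars (0.29, SE 0.058), and Cebpb. The call of Gars was lost under quantile normalization (limma adjusted p = 0.0647), and without a variance trend 1 of the targets was called. The median log2 fold change of the tested targets was 0.081.

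Among 20 textbook targets of AP-1, which were listed without regard to cell type, 14 were tested and 1 rose, against 5.10% of all genes. Mmp9, a matrix metalloproteinase, was at 1.43 and 1.10 FPKM in CTRL and 3.65 and 3.09 in KO (log2 fold change 0.95, SE 0.14, limma adjusted p = 0.0351). None of the targets fell in limma, where 4.65% of all genes did. At an unadjusted p under 0.05, 3 targets were higher and 2 lower, where all genes gave 16.3% and 18.4%. In limma-voom, 3 targets were higher and 0 lower. The median log2 fold change was 0.0075. The calls around Atf4 and that of Mmp9 were also lost without any 1 library.

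**Figure D5:**
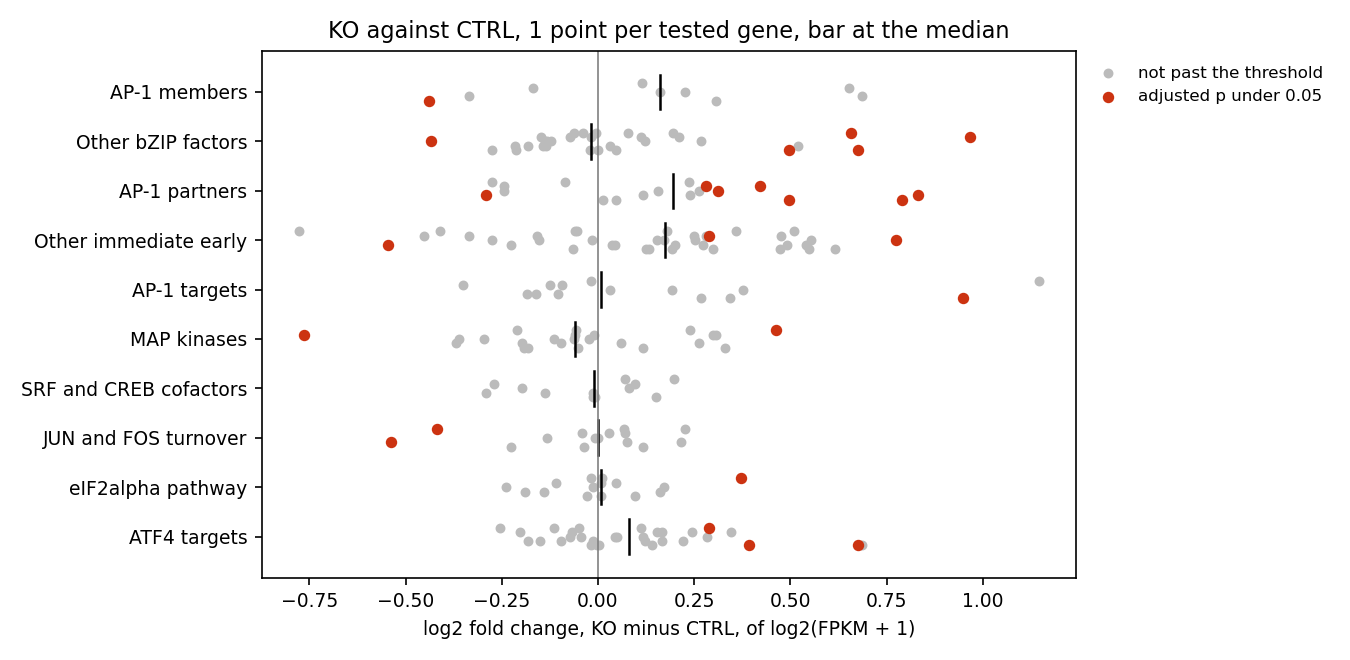
Log2 fold change of log2(FPKM + 1), KO minus CTRL, with 1 point per tested gene of each list, red where the limma adjusted p was under 0.05, and a bar at the list's median. The members have 1 red point, Fos, to the left of 0, and the listed DNA-binding partners have 6 red points to the right and 1 to the left. A gene in more than 1 list (Batf, Cebpb and Atf3 among others) is drawn in each.

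Antisense transcripts overlap some members in GENCODE: Junos overlaps Jun over 689 bases, Gm11175 overlaps Jund over 919 bases, and shorter overlaps exist for Junb, Atf3 and Jdp2. The use of strand in the authors' counting was not given in the sources used here. Under GENCODE models, reads of these overlapping genes could therefore not be told apart from those of the members. RefSeq listed no gene overlapping a member. With Jun at its RefSeq span, the FPKM steps implied 1840 bases for Junb and 2878 for Jund, equal to their RefSeq spans. GENCODE exons cover 2301 and 1668 bases of these genes. In GENCODE, Fos, Fosb, Fosl2, Atf4 and Batf have no overlapping gene.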

How the data were processed

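The authors mapped reads to mm10 with HISAT2 (version 2.2.1), counted them per gene with featureCounts (version 2.0.1) and, per the labels, used edgeR (version 3.34.0). The deposited values were FPKM made by the authors. Columns named WT were read as the CTRL libraries of the same number. The annotation and multi-mapping rules were not given in the sources used here. The FPKM steps between libraries gave whole reads for 19887 of 19888 genes above 0 (99.995%). They set lower bounds on the reads behind a value, since a common factor cannot be seen.

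The comparison used limma 3.58.1 in R 4.3.3 with an intensity trend, on log2(FPKM + 1), for the 11399 genes that reached FPKM 1 in 2 or more libraries. The test was two-sided, with Benjamini-Hochberg adjustment over all genes tested and a threshold of 0.05. A fold change on this scale understates changes of weak genes. Since FPKM are not counts, the study's own edgeR test was not repeated. The test rested on 2 libraries per group, with a median SE of 0.087 on the log2 scale. The procedure was also run on simulated data, with planted changes larger than that of Fos, so that run does not bear on the call of Fos.

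The members and gene lists were chosen with earlier results of these data known. Named genes were the members, each list gene past the threshold (or that with the smallest p), Batf, Fosl1 and Setd2. Also named were the 5 genes most like the mean profile of Fos, Fosb, Jun and Junb. The rest of the text names marker genes as descriptions. Alternatives were other filters, scalings, variance models, a pseudocount of 0.1, a replicate block, leaving out each library and, chosen after seeing the data, limma-voom on the recovered reads. Python 3.11.15, numpy 2.4.6 and pandas 2.3.3 were used outside R.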

Additional observations from a re-analysis of the deposited data

How the results depend on the processing

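Main counts were 581 genes higher and 530 lower in KO, with 0 members higher and 1 lower. Testing every gene above 0 gave 0 higher and 0 lower, and 0 members lower. Without a variance trend, 315 genes were higher and 364 lower, and with equal-sum scaling 570 higher and 647 lower, so the side with more calls changed. The replicate block, which had 968 genes higher and 805 lower, called 1 member higher (Jdp2), and limma-voom on recovered reads (867 higher and 1024 lower), median-ratio scaling and robust eBayes each did the same. The labels do not say what the replicate numbers mark, and whether same-numbered libraries shared a batch is unknown. Their deviations correlated at 0.342 (Pearson) and 0.0553 (Spearman), over 2 pairs. Leaving out 1 library gave 0 to 1 genes higher, 0 to 1 lower and 0 members lower, where a lone library was assumed to vary like the other group. Among the named genes, log2 fold changes turned direction in Junb without CTRL 1 (-0.076) and without KO 1 (-0.097, up to 0.32), in Fosl2 without KO 1 (-0.15, up to 0.61), in Jun without KO 2 (0.0068, down to -0.35) and in Rcor3 without KO 2 (0.0084, down to -0.34), and under no other setting run. The causes were not tested beyond the smaller number of libraries. No scaling moved the median of all genes by more than 0.1 on the log2 scale. Depth limits Batf3 and Fosl1, which rest on few reads.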
